A study of Mus musculus with 6 samples.

Results

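MARIO reads RNAs that were held together on 1 protein: after crosslinking, the RNAs bound to a protein molecule are ligated through a linker, and each chimera is sequenced as RNA1 (before the linker) and RNA2 (behind it). The read pairs described here are those deposited with the type misc_RNA, srpRNA or scRNA at 1 end or both, the types that would hold signal recognition particle RNA (7SL), 7SK RNA and Y RNA. They numbered 19543 of 8319389 read pairs in 4 mouse libraries. ES-1 and ES-2 were 2 samples of undifferentiated E14 embryonic stem (ES) cells, strain 129/Ola, kept without feeder cells, crosslinked by UV light of 254 nm and digested with RNase I to about 1000 nt. ES indirect was made from E14 cells, strain 129/Ola, treated with formaldehyde and EGS, which also join proteins to proteins, and sonicated to about 1000 nt. MEF was made from embryonic fibroblasts of C57Bl/6 mice, crosslinked by UV light of 254 nm and digested with RNase I to about 300 nt. Ribosomal RNA (rRNA) was depleted by duplex-specific nuclease for ES-1 and for ES indirect, and by the Generead kit for ES-2 and for MEF. The study describes ES-1 and ES-2 as separate assays that differed in small technical points, and its methods let the fragments of ES-1 reach above the 1000 nt of the labels. Whether they came from separate cultures is not said. The other groups had 1 library each. ES indirect shared the depletion of ES-1 but differed in crosslinker and fragmentation. MEF shared the depletion and crosslinker of ES-2 but differed in cell type, strain and fragment size. In each case these differences cannot be told apart from one another or from the library. The brain libraries were not analysed here.

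The types held these RNAs only in part. No line had the type srpRNA or scRNA and no name held 7SL, although most ends under 3 clone names matched 7SL. Of the 18 names present, RNase_MRP led with 6214 distinct read pairs over the 4 libraries, where read pairs of equal coordinates at both ends count once. The name 7SK had 2028 distinct read pairs, CT025673.1 had 601 and AL844869.1 had 85. Y_RNA had 5, and none of the other 13 names had more than 10. The read pairs are called by these names, with RNase MRP first.

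RNase MRP is a ribonucleoprotein enzyme found mainly in the nucleolus, related to RNase P, and its RNA is the product of the gene Rmrp. It is best known for a cut in an internal transcribed spacer of the precursor of rRNA. 7SK RNA holds the kinase P-TEFb inactive and so restrains elongation by RNA polymerase II. 7SL RNA is the scaffold of the signal recognition particle, which brings ribosomes that make secreted and membrane proteins to the endoplasmic reticulum, and Y RNAs bind the Ro60 protein. All are made by RNA polymerase III, and genomes of mammals hold many dispersed copies of 7SK, 7SL and Y RNA besides the few functional genes.

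The sequences on which the RNase MRP and 7SK names rest are shown 5′ to 3′. Coordinates are those of mm9 (NCBIM37), the build of the files, and genes are those of GENCODE vM1. RNase MRP RNA is encoded at chr4:43505660-43505930 on the minus strand (ENSMUSG00000088088, 271 nt). It is shown with 4 genomic bases past its annotated 3′ end, where many RNA1 fragments stopped, and capitals mark bases 159 to 275, because a fragment that began there was deposited without the name.
RNase MRP RNA: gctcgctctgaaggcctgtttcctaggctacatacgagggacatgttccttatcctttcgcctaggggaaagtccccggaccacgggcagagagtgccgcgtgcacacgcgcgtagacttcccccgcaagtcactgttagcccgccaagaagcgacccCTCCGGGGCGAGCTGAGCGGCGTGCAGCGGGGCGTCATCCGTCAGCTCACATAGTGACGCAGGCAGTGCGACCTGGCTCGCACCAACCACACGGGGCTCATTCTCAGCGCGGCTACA
Most ends named 7SK lay at a copy inside Celf2, chr2:6997140-6997460 on the minus strand (ENSMUSG00000065824). Its stretch chr2:6997222-6997456 is shown because these 235 bases equal bases 5 to 239 of the functional 7SK gene, chr9:78023110-78023440 on the minus strand (ENSMUSG00000065037, 331 nt). Capitals mark the 20 bases that named ends covered most, bases 110 to 129 of 7SK RNA.
7SK copy: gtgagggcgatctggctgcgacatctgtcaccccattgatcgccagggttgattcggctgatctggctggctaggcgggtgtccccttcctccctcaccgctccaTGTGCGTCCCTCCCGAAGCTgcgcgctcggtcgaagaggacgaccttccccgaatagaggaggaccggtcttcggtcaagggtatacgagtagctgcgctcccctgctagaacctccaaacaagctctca

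All members together made up 5132 of 2310134 distinct read pairs of ES-1 (0.222%), 1008 of the 1241787 of ES-2 (0.0812%), 2667 of the 1655476 of ES indirect (0.161%) and 164 of the 373978 of MEF (0.0439%). Of the member lines, 49.2% of ES-1, 67.1% of ES indirect, 14.6% of ES-2 and 3.53% of MEF lay at coordinates already seen. Over all lines of these libraries the shares were 28.5%, 49.9%, 5.37% and 21.2%. MEF values rest on few read pairs throughout, and fewer of its sequences matched mm9 at the stated place within 15% mismatches. Both ends matched in 57.3% of the MEF members, 84.1% of ES-2, 92.1% of ES indirect and 95.3% of ES-1. Over all lines of MEF, 60.1% of RNA1 and 56.3% of RNA2 matched. Members with the same coordinates in 2 libraries were counted: ES-1 and ES-2 shared 5 (0.0974% and 0.496% of their members), ES-1 and ES indirect 42 (0.818% and 1.57%), ES-2 and ES indirect 18 (1.79% and 0.675%), and MEF shared 0. Such shares over all distinct read pairs are not given here. The cells carried the markers of their labels: 8 ES cell genes had between 122 and 301 ends per 1000000 in the ES libraries and 21.4 for MEF, and 8 fibroblast genes had at most 12.99 there and 497 for MEF. Endothelial and blood markers were at 0 in MEF.

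RNase MRP was the most frequent name, and it varied widely between the ES samples. Per 100000 distinct read pairs, ES-1 had 176.7 with this name (95% Wilson interval 171.3 to 182.2), ES-2 47.8 (44.1 to 51.8), ES indirect 88.3 (83.9 to 93.0) and MEF 20.9 (16.7 to 26.0). No intervals overlapped, and ES-1 and ES-2, of the same group, lay further apart than ES-2 and MEF. Intervals cover counting error only. The study removed duplicate reads by a random barcode that the deposited lines do not carry, so lines with equal coordinates may be separate molecules and were here counted once.

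By name, 7SK was at like levels in the ES samples. Per 100000 distinct read pairs, ES-1 had 24.4 (22.4 to 26.5), ES-2 23.8 (21.3 to 26.7), ES indirect 66.7 (62.9 to 70.7) and MEF 17.4 (13.6 to 22.2). ES-1 and ES-2 overlapped, ES-2 also overlapped MEF, and ES indirect lay above the others. For CT025673.1, ES-1 had 19.003 (17.3 to 20.9) and stood above ES-2 with 6.20, ES indirect with 4.11 and MEF with 4.55, whose intervals overlapped.

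**Figure D1:**
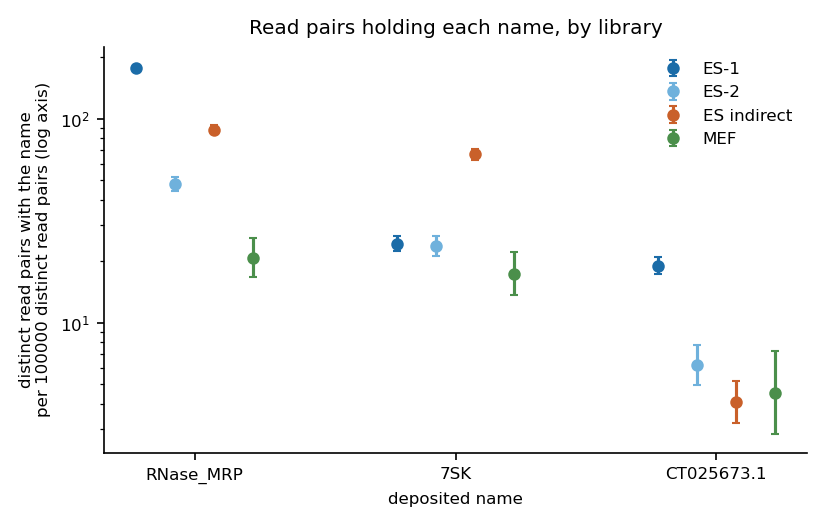
Distinct read pairs with each of the 3 most frequent names, per 100000 distinct read pairs of the library (log axis). Points are libraries and bars 95% Wilson intervals. RNase_MRP runs from 20.9 (MEF) to 176.7 (ES-1), and 7SK is highest for ES indirect.

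The functional genes of 7SK, 7SL and Y RNA were read but carried no names. At the 7SK gene of chromosome 9 lay 2809 sense ends in the ES-1 library, 772 in that of ES-2, 2904 in that of ES indirect and 42 in that of MEF, and 0 of them had a name. A 7SL gene on the minus strand of chromosome 12 had 4863, 4308, 2517 and 270 ends in the same order of libraries, and the other, on its plus strand, had 1962, 516, 1494 and 136, again with 0 named. The Y RNA genes of chromosome 6 had 79, 48, 114 and 2 ends (chr6:47731623-47731724) and 148, 89, 104 and 4 (chr6:47738068-47738179), with 0 named. The names therefore miss most ends of these RNAs, except for 7SK in MEF, where 68 ends had the name and 42 at the gene had none. Counted at the gene, 7SK had 120.6 read pairs per 100000 in ES-1 (116.2 to 125.2), 61.8 in ES-2 (57.5 to 66.3), 153.9 in ES indirect (148 to 159.9) and 11.2 in MEF (8.31 to 15.2). The ES samples, alike by name, did not overlap by gene.

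The ends that were named 7SK fitted the functional gene as well as the stated copy. Of 2148 such ends, 1682 lay at the copy inside Celf2, 99.4% of them inside the stretch printed above, and 1677 of the 1682 matched the gene and the copy equally well. Inside Zfp318 (chr17:46540824-46541147) 100 of 138 ends were nearer to the gene than to the stated copy, and inside Cep170 (chr1:178724087-178724351) 85 of 86. Over all copies 1808 ends were equally near, 258 nearer to the gene and 82 nearer to the stated copy, so few ends can be assigned to a copy. Names of 7SL copies behaved alike: of 602 ends named CT025673.1, 567 fitted a functional 7SL gene as well as the stated locus and 4 fitted it better, and of 85 named AL844869.1, 75 and 9 did. Of the rarer names, AC069308.1 had 5 and 4 such ends of 10 and BX470216.1 had 1 of 4 that fitted as well. None of these ends fitted 7SK as well.

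Named and unnamed ends centred on different parts of 7SK RNA. The middles of the named ends had their median at base 130.5 (ES-1), base 124.8 (ES-2), base 127 (ES indirect) and base 129.8 (MEF). Those of the unnamed ends at the gene lay further 3′, at base 304, base 295.5, base 241.2 and base 270.8. The quartiles of ES-1 did not meet, with bases 109 to 179.5 for named and bases 270.5 to 311 for unnamed ends, nor did those of ES-2. They overlapped for ES indirect, with bases 78.5 to 167.5 and bases 151.5 to 289, and for MEF, with bases 119.1 to 198.5 and bases 143.5 to 308.6. The names thus sample the 5′ and middle parts of the RNA, which the Celf2 copy shares with the gene.

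**Figure D2:**
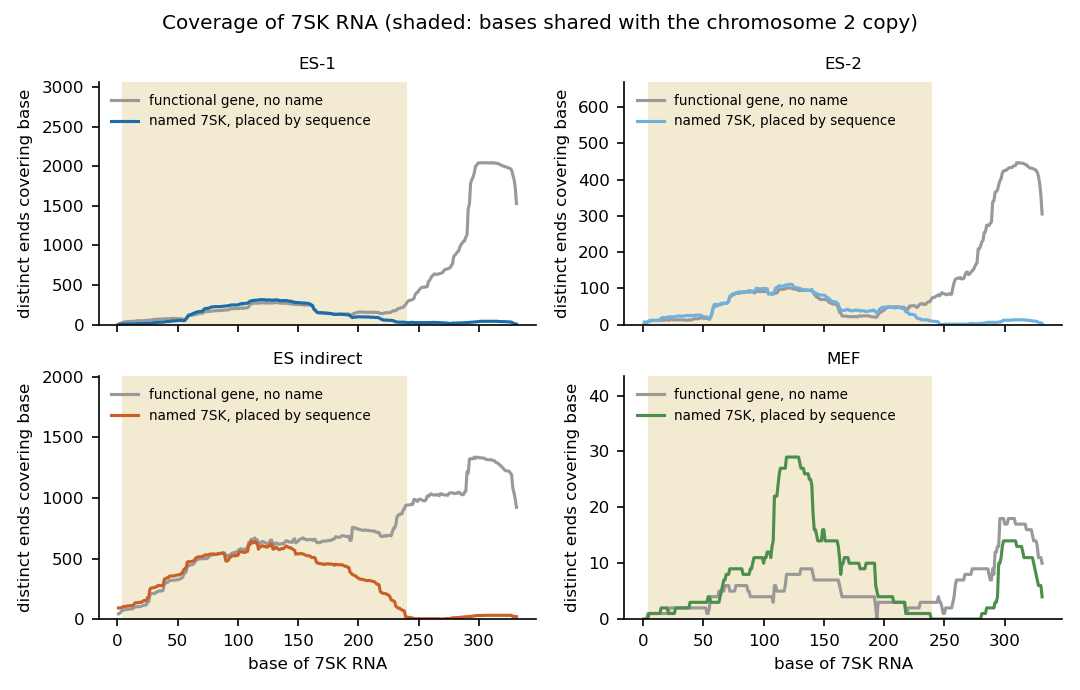
Distinct ends covering each base of 7SK RNA, by library, for ends named 7SK and placed by sequence (coloured) and for unnamed ends at the functional gene (grey). Shading marks bases 5 to 239, identical in the copy inside Celf2. The grey lines of ES-1 and ES-2 are highest 3′ of the shading.

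RNase MRP differed in that the name stood at the functional gene itself, on 6723 of 12874 sense ends (52.2%). Position divided the ends: no fragment that began after base 158 had the name, and the first base of the unnamed fragments was 159 or later. Of RNA1 fragments ES-1 had 57.6% named, ES-2 15.4%, ES indirect 52.1% and MEF 49.3%. Of RNA2 fragments 71.0% to 78.6% were named in each library. Counted by gene, with or without a name, ES-1 had 292.6 per 100000 distinct read pairs (285.7 to 299.6), ES-2 203.7 (195.9 to 211.7), ES indirect 136 (130.5 to 141.7) and MEF 32.4 (27.1 to 38.7). The ES samples were nearer to each other by gene than by name, and ES-2 then lay above ES indirect.

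Which base was ligated is known only where the read reached the junction. Pairs with exactly 90 nt of RNA1 and 100 nt of RNA2 were taken as not reaching it, a reading inferred from these lengths alone. Of the distinct read pairs, ES-1 had 8.35% of this kind, ES-2 2.01%, ES indirect 35.7% and MEF 0%, and among members 23.2%, 9.82%, 44.4% and 0%. Ligated bases along RNase MRP RNA are given for the other pairs.

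As RNA1, RNase MRP RNA was joined through its 3′ terminus more often than at any other single place along it. The last base was 271 or later in 2538 of 5377 RNA1 fragments of ES-1 (47.2%, 45.9 to 48.5), in 1880 of 2237 of ES-2 (84.0%, 82.5 to 85.5), in 868 of 1432 of ES indirect (60.6%, 58.1 to 63.1) and in 28 of 67 of MEF (41.8%, 30.7 to 53.7). Bases 274 and 275 alone took 2193, 1686, 634 and 21 of them. The terminus led in every library, with the largest share in ES-2. The name reached few of these fragments, 162 of the 2538, 31 of the 1880, 31 of the 868 and 0 of the 28.

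As RNA2, RNase MRP RNA was joined most often through its 5′ terminus. Its first base lay within bases -2 to 3 in 145 of 405 RNA2 fragments of ES-1 (35.8%, 31.3 to 40.6), in 87 of 267 of ES-2 (32.6%, 27.2 to 38.4), in 139 of 528 of ES indirect (26.3%, 22.8 to 30.2) and in 15 of 62 of MEF (24.2%, 15.2 to 36.2). The intervals of the 4 libraries overlapped, apart from those of ES-1 and ES indirect. A further place was the window of bases 131 to 140, with 13.3%, 7.49%, 17.2% and 17.7% of the RNA2 fragments of the libraries in the same order. In ES-2 bases 201 to 210 held more (24 of 267, 8.99%). Of the named RNA1 fragments 6.08%, 10.4%, 22.2% and 24.2% ended at bases 131 to 140, but in ES-1 more ended at bases 81 to 90 (7.49%), bases 101 to 110 (7.23%) and bases 51 to 60 (6.78%).

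**Figure D3:**
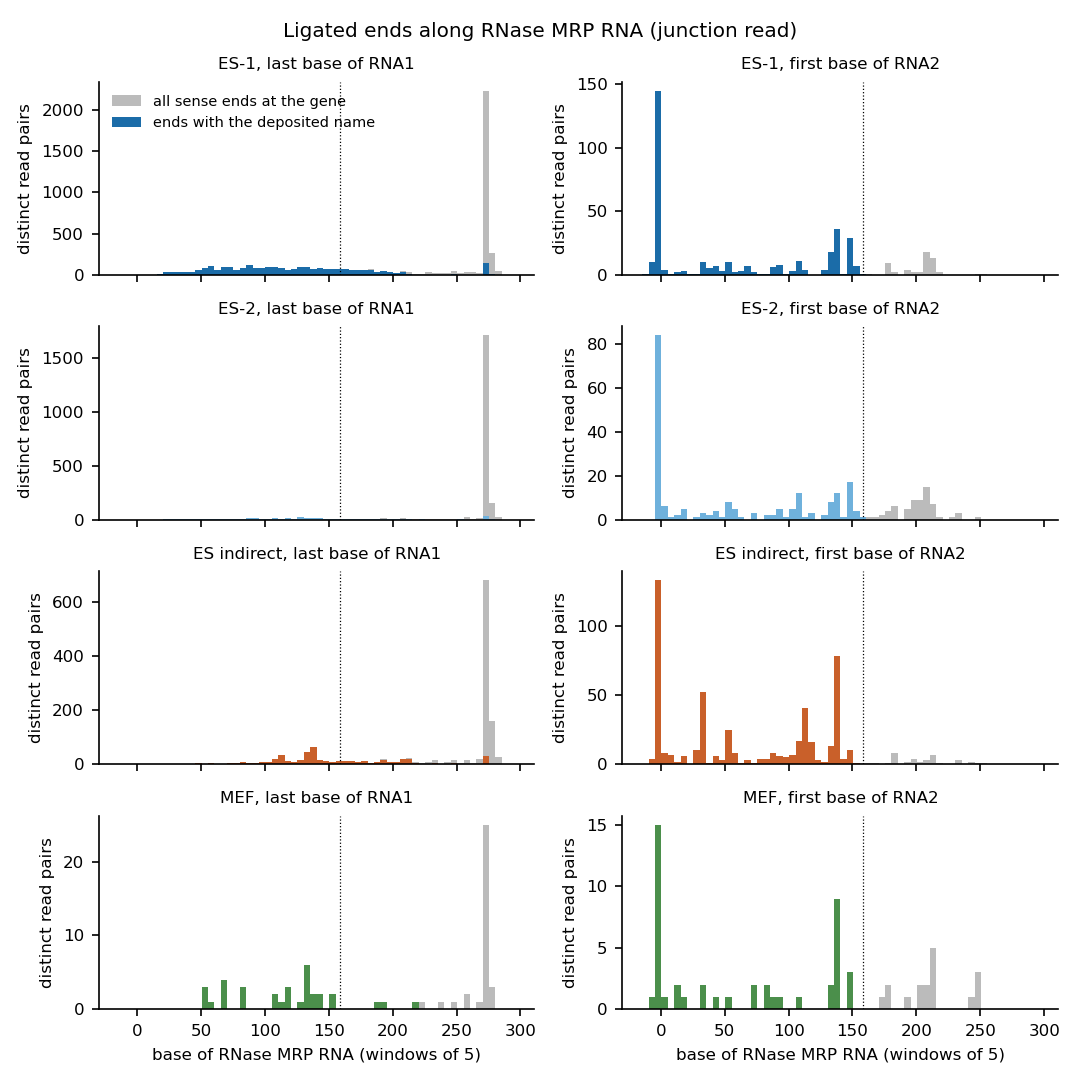
Last base of RNA1 (left) and first base of RNA2 (right) along RNase MRP RNA, in distinct read pairs with a junction read, in windows of 5 bases. Coloured bars are ends with the name, grey bars all sense ends at the gene, and the dotted line marks base 158, after which no fragment that began was named. RNA1 ends pile up past base 271 and RNA2 starts at the first bases.

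The side on which a name was read differed between names. RNase_MRP was RNA1 in 85.8% of its ends for ES-1, and in 60.1%, 55.8% and 45.1% for the other libraries in the order above. CT025673.1 was RNA1 in 91.6%, 94.8%, 57.4% and 58.8%, and 7SK in 41.5%, 39.6%, 60.02% and 25%. Partner types are therefore also compared on the same side.

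Self pairs, with the same name at both ends, were most frequent in ES indirect. RNase MRP had 180 among 4081 distinct read pairs of ES-1 (4.41%), 19 among 593 of ES-2 (3.20%), 385 among 1462 of ES indirect (26.3%) and 4 among 78 of MEF (5.13%). Of these, 157, 17, 307 and 0 had no junction read. Among pairs with a junction read the share was 0.756% (0.504 to 1.13), 0.397% (0.109 to 1.44), 8.59% (6.94 to 10.6) and 5.13% (2.01 to 12.5), so ES indirect still lay above both ES samples, by more than the spread between them. The MEF share rests on 4 pairs, 1 of them with both ends in sense at the gene, and differed widely between flow cells. Sonication came with the other crosslinker, and their parts in the difference cannot be told apart.

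The order of the ends along RNase MRP RNA depended on the junction. Counting all sense ends at the gene, RNA2 lay wholly 5′ of RNA1 in 71 of 74 self pairs with a junction read of ES-1, in 42 of 50 of ES-2, in 221 of 272 of ES indirect and in 6 of 8 of MEF. Without a junction read it did so in 2 of 281, in 1 of 42 and in 3 of 487, and the rest overlapped or ran forward. To keep intact RNA fragments out of its structural analysis, the study removed pairs of a gene in forward order. The deposited lines still held such pairs, 152 of 355 self pairs in ES-1 and 228 of 759 in ES indirect, so they had not all passed this step. Why the order differed with the junction was not tested, so the order is not read as a property of the RNA.

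Among self pairs with a junction read, the 2 termini of RNase MRP RNA were the places joined to each other most often, except in MEF. Over all partners each terminus also led on its side, as given above. Whether the joining of the 2 termini exceeds this was not tested. RNA1 ended at the 3′ terminus in 49 of the 74 self pairs of ES-1, 47 of the 50 of ES-2, 170 of the 272 of ES indirect and 5 of the 8 of MEF. It was joined to the RNA start in 21, 23, 67 and 0. By windows of 20 bases and over all libraries, the next combination was the 3′ terminus with bases 121 to 140, in 11, 2, 40 and 2 pairs, most of them of ES indirect. In ES-2 the next were bases 141 to 160 with 10 pairs and bases 201 to 220 with 7. Ends of 1 molecule and of 2 molecules cannot be told apart.

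**Figure D4:**
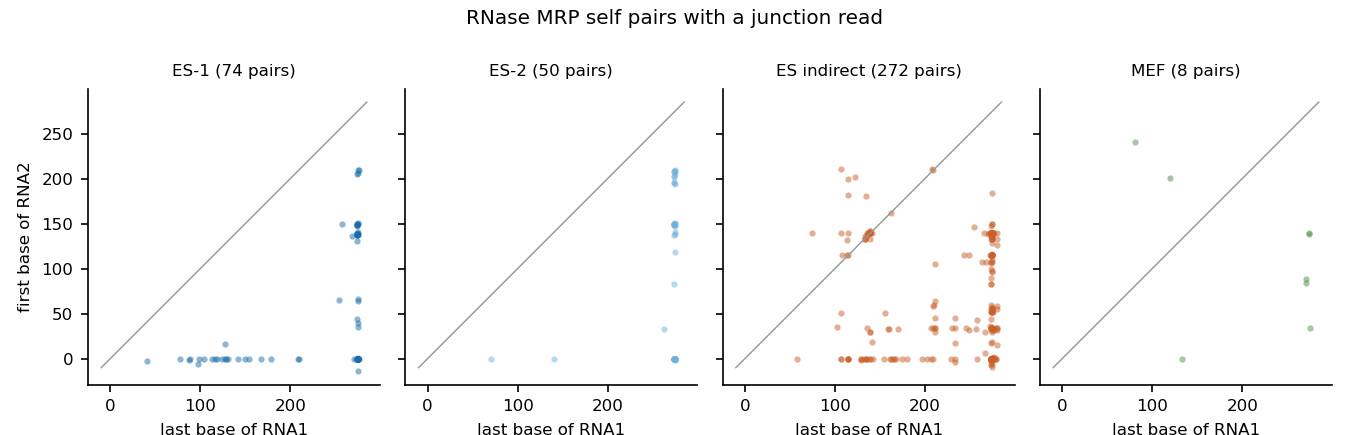
RNase MRP self pairs with a junction read, all sense ends at the gene, with the last base of RNA1 on the x axis and the first base of RNA2 on the y axis. Each point is 1 distinct read pair (74, 50, 272 and 8), and the line marks equal bases. Points gather at the 3′ terminus on the x axis and, but for MEF, most often at the RNA start on the y axis.

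For 7SK the number of self pairs depended on the names. By name they were 6 of 563 read pairs in ES-1 (1.07%) and 2 of 296 in ES-2 (0.68%), but 109 of 1104 in ES indirect (9.87%) and 3 of 65 in MEF (4.62%). Counting any partner whose sequence matches 7SK, they were 58 (10.3%), 6 (2.03%), 731 (66.2%) and 7 (10.8%), as many partners lay at the unnamed gene or other copies. With a junction read they were 2 of 460, 1 of 291, 159 of 500 (31.8%, 27.9 to 36.0) and 7 of 65 (10.8%, 5.32 to 20.6). ES indirect thus exceeded ES-1 and ES-2 on each count. Its 159 pairs comprised 54 with RNA2 wholly 5′ of RNA1, 80 in forward order and 25 that overlapped. The 7 pairs of MEF comprised 1 in forward order and 6 that overlapped.

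Partner types were compared with all other ends of a library by two-sided Fisher's exact test, adjusted by Benjamini-Hochberg over 144 shares (3 names, 12 types, 4 libraries). Only named ends entered these shares, which leave out most RNase MRP RNA1 fragments that ended at the 3′ terminus. Of 36 shares a library, 33.3% passed for ES-1, and 13.9%, 47.2% and 2.78% for ES-2, ES indirect and MEF. On the RNA1 side against other named RNA1 these were 22.2%, 2.78%, 44.4% and 0%, and on the RNA2 side 13.9%, 5.56%, 30.6% and 0%. These tests compare read pairs of 1 library and carry no replicate error, so a difference is counted here only where ES-1 and ES-2 show it alike. Unannotated partners, many of them the RNA itself, lower the share of every other type, and the shares were therefore also taken without unannotated ends, an alternative chosen after seeing the data. The shares past the threshold, of 132 without the unannotated type, then went from 28 to 15. Of 33 shares a library these were 27.3% for ES-1 and 6.06%, 9.09% and 3.03% for ES-2, ES indirect and MEF, with 18.2%, 0%, 27.3% and 0% on the RNA1 side and 9.09%, 0%, 12.1% and 0% on the RNA2 side.

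Ribosomal RNA was the most frequent partner type of RNase MRP in the ES samples, with 68.3% of 3901 partners in ES-1 and 52.1% of 574 in ES-2. It was 37.5% of 1077 in ES indirect and 36.5% of 74 in MEF. All other read pairs had 57.0%, 54.1%, 44.8% and 27.3%. In ES indirect unannotated partners were more frequent than rRNA, with 430, of which 372 lay at genes or copies of the same RNA. The 385 self pairs by name of that library are not among the partners. The direction depended on the comparison. As RNA1, the share in ES-1 was 72.6%, against 73.4% for all other RNA1 and 70.8% for other RNA1 with a name that is not rRNA. In ES indirect it was 46.9% against 49.7% and 26.4%. Without unannotated ends, rRNA was 76.01% of RNase MRP partners in ES-1 against 60.8% (adjusted p = 1.2e-78, Fisher's exact test), 67.2% in ES-2 against 59.2% (adjusted p = 0.0072, Fisher's exact test) and 62.4% in ES indirect against 48.9% (adjusted p = 1.9e-10, Fisher's exact test). By side, ES indirect passed on both. ES-1 passed as RNA1 (79.2% against 73.9%) but not as RNA2 (44.2% against 36.9%, adjusted p = 0.12, Fisher's exact test), and ES-2 passed on neither (77.7% against 72.9% and 45.5% against 42.04%, adjusted p = 0.41 and 1, Fisher's exact test). A higher share is therefore not counted for both ES samples. At its 3′ terminus, RNase MRP RNA1 with a junction read, named or not, had 75.8% rRNA in ES-1 (74.1 to 77.5) outside self pairs. In ES-2 it had 68.4% (66.2 to 70.5). Named RNA1 that ended inside the RNA had 80.9% (79.3 to 82.3) and 79.3% (73.9 to 83.8). ES indirect had 70.6% and 67.6%, with intervals that overlapped, and MEF 39.1% of 23 and 63.3% of 30. The terminus was not tested. For 7SK, rRNA was 49.2% of 557 partners in ES-1 and 48.3% of 294 in ES-2, below 57.0% and 54.1%, with an adjusted p of 0.0014 and 0.20 by Fisher's exact test, and without unannotated ends the ES-1 difference missed the threshold (58.2% against 60.8%, adjusted p = 0.74). By side it turned to 75.9% against 73.9% as RNA1 (adjusted p = 1, Fisher's exact test) and 46.5% against 36.8% as RNA2 (adjusted p = 0.019, Fisher's exact test). ES-2 had 82.2% against 72.9% and 36.5% against 42.03% (adjusted p = 0.22 and 0.83, Fisher's exact test), and no direction is given for 7SK. For CT025673.1 in ES-1, rRNA without unannotated ends was 79.4% against 60.8% (adjusted p = 2.8e-14, Fisher's exact test). As RNA1 it was 82.3% against 73.9% (adjusted p = 0.0021, Fisher's exact test). By side no share of ES-2 passed, so a higher share is not counted for both ES samples.

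Small nucleolar RNAs (snoRNAs), which guide the modification of rRNA, were 11.4% of RNase MRP partners in ES-1 against 21.2% elsewhere and 6.45% in ES-2 against 10.1%, with an adjusted p of 6.7e-57 and 0.0136 by Fisher's exact test. Without unannotated ends they were 12.7% against 22.6% (adjusted p = 4.3e-49, Fisher's exact test) and 8.31% against 11.1%, which missed the threshold (adjusted p = 0.35, Fisher's exact test). Side by side and without these ends, ES-1 had 10.3% against 11.9% on the RNA1 side (adjusted p = 0.042, Fisher's exact test) and 36.1% against 37.8% on the RNA2 side (adjusted p = 1, Fisher's exact test), and ES-2 had 6.67% against 7.42% and 11.7% against 18.2% (adjusted p = 1 and 0.47, Fisher's exact test). The shares of both ES samples lay below those of other RNAs throughout, but with the ES-2 call lost, on 445 partners in place of 574, a difference is not counted for both. For 7SK, snoRNAs were 20.1% against 21.2% in ES-1 and 8.84% against 10.1% in ES-2, with an adjusted p of 1 for both by Fisher's exact test.

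Messenger RNAs (mRNAs) were 6.87% of RNase MRP partners in ES-1 against 9.55%, and 12.02% in ES-2 against 16.8%, with an adjusted p of 3.2e-08 and 0.0103 by Fisher's exact test. The ES-2 difference missed the threshold on the RNA1 side (8.31% against 12.2%, adjusted p = 0.13, Fisher's exact test), on the RNA2 side (17.8% against 21.4%, adjusted p = 0.62, Fisher's exact test) and without unannotated ends (15.5% against 18.3%, adjusted p = 0.53, Fisher's exact test), so no lower share is counted for both ES samples. In ES-1 it passed each of these. With ribosomal ends left out, the ES-1 difference missed the threshold (21.7% against 24.6%, adjusted p = 0.088, Fisher's exact test). ES indirect had 14.5% for RNase MRP and 10.2% for 7SK, against 32.9% and 32.8%, with an adjusted p of 1.0e-41 and 1.1e-61 by Fisher's exact test. Without unannotated ends these were 24.1% against 35.9% (adjusted p = 3.7e-09, Fisher's exact test) and 30.3% against 35.9% (adjusted p = 0.27, Fisher's exact test). There, unannotated ends were frequent partners, 430 for RNase MRP and 662 for 7SK, and 372 and 624 of them lay at genes or copies of the same RNA. ES-1 had 395 and 86 such partners, of which 171 and 52 were the same RNA.

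With ends on either strand of an mRNA gene counted, the exonic share did not differ in the same way in both ES samples. In ES-1, 162 of 267 mRNA ends joined to RNase MRP (60.7%, 54.7 to 66.3) were exonic, 24 in 5′ UTRs, 94 in coding exons and 44 in 3′ UTRs, against 46.5% of other mRNA ends (adjusted p = 4.4e-05 over 12 shares, Fisher's exact test). It was 1 of the 3 shares tested in that library (33.3%), and 0% passed in the others. In ES-2, 23 of 69 (33.3%, 23.4 to 45.1) were exonic against 42.0%, the opposite way (adjusted p = 0.43, Fisher's exact test). In ES indirect 39 of 156 were exonic (25%) against 23.2%, and in MEF 2 of 14. For 7SK, 18 of 48 (37.5%), 21 of 59 (35.6%), 13 of 91 (14.3%) and 2 of 17 (11.8%) were exonic, and none passed. With a junction read, the ES-1 share for RNase MRP was 53.3% against 45.4% and missed the threshold (adjusted p = 0.21, Fisher's exact test).

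No RNA pair that held a member was called for ES-1 as well as for ES-2. A call needed 3 or more distinct read pairs, ends more than 2000 bp apart and an adjusted p under 0.05 by one-sided Fisher's exact test over all RNA pairs of a library. ES-1 had 4 calls among 645 member pairs, where 1.09% of all RNA pairs were called, and ES-2 had 0 among 250, where 0.719% were. ES indirect had 1 among 357 (2.54% of all pairs) and MEF 3 among 61 (0.842%). Merging the ES samples gave 5 among 844 (0.895%). Members were called at or below the background rate in the ES libraries and above it in MEF, where 3 calls decide the share. In ES-2, 1 of 6 member pairs with at least 3 read pairs had an unadjusted p under 0.05 (7SK with Il1rapl1, p = 0.019, Fisher's exact test).

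The called pairs rested on few read pairs. ES-1 joined RNase MRP to Tacc2, a coiled-coil protein of the centrosome, in 4 (adjusted p = 5.2e-05, Fisher's exact test), to Ncoa3, a nuclear receptor coactivator, in 3 (adjusted p = 0.0087, Fisher's exact test) and to Ppp1r9a, which binds actin and protein phosphatase 1, in 3 (adjusted p = 0.014, Fisher's exact test). None of these pairs was read in ES-2. 7SK was called with the repeat MIRm in ES-1 (3 read pairs, adjusted p = 1.8e-04, Fisher's exact test) and with the repeat Lx2 in ES indirect (4, adjusted p = 0.0074, Fisher's exact test). In MEF, 7SK was called with the repeat B4A (9 read pairs, adjusted p = 0.0085, Fisher's exact test), and RNase MRP with the repeat L1Md_F3 (4, adjusted p = 0.032, Fisher's exact test) and with Snora81 (3, adjusted p = 0.019, Fisher's exact test). None of the 3 MEF calls was made with matching sequences or with fragments of at least 20 nt. Merged ES samples added Snora70, with 6 read pairs, all of ES-1 (adjusted p = 0.034, Fisher's exact test).

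The partners with most read pairs were frequent RNAs of the libraries. Among partners read in both ES samples, RNase MRP was read most often with Snora81 (23 in ES-1 and 4 in ES-2), Dnahc7b (16 and 1), L1Md_F3 (12 and 1), Snora68 (12 and 1) and Snora44 (10 and 2), and in ES indirect with Agap1 (7). Snora73b, U1 and SNORA57, with 21, 17 and 13 read pairs in ES-1, had 0 in ES-2 and are named after their values were seen. Snora81 alone had 60435 ends in ES-1, and none of these pairs was called in the ES libraries. 7SK was read most often with Snora81 (8 and 4), SNORA3 (7 and 2) and U1, an RNA of the spliceosome (5 and 2, and 5 in ES indirect). CT025673.1 had no partner with more than 3 read pairs in any library.

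Genes of the proteins bound to 7SL, 7SK and Y RNA were not among the partners, and those of RNase MRP proteins were not listed. Of 10 genes of the signal recognition particle and its receptor, 7 of the 7SK particle and 6 of Y RNA proteins, 0 were joined to a member. The first list was rarely read at all: Srp9, whose protein binds the Alu domain of 7SL, had 3 ends in ES-1 and 31 in ES indirect, so a count of 0 says little. A list of 4 small RNA genes (Rmrp, Rpph1, Terc and Vaultrc5) had 0 ends under these names in every library. It could therefore not be joined to a member. Of 26 mRNAs of secreted and membrane proteins 3 were joined, each to 7SK and by 1 read pair: Lamc1, a laminin chain, and Tfrc, the transferrin receptor, in ES-1, and Cdh1, E-cadherin, in ES indirect. Of all 19983 mRNA names 646 (3.23%) were joined to a member.

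In 18S rRNA, RNase MRP RNA was joined to a window of 20 bases more often than other RNAs were. The window, chr17:39984781-39984800, ranked first in ES-1, which chose it. Of the ranked windows it had the largest excess over other RNAs in percentage points. As a ratio to other RNAs, chr5:147072701-147072720 was higher (4.95 against 3.63). The 18S window is shown in capitals within chr17:39984761-39984820 of the plus strand, because the next values count the RNA2 fragments that begin in it.
18S window: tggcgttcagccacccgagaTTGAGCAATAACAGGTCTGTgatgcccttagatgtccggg
Among rRNA partners of named RNase MRP RNA1 in ES-1, 50 of 2524 (1.98%) began there, against 0.546% of those of other RNAs, which is the choice and not a test. In libraries that had no part in it, 12 of 233 began there in ES-2 (5.15%, 2.97 to 8.78, against 0.902%; adjusted p = 1.7e-05, Fisher's exact test) and 12 of 303 in ES indirect (3.96%, 2.28 to 6.79, against 0.914%; adjusted p = 1.4e-04, Fisher's exact test). MEF had 0 of 19. The 12 pairs had 12 different RNA1 positions and 8 different RNA2 starts in each library. The junction was read in 37 of the 50 pairs of ES-1 and in 12 and 11 of the 12 of ES-2 and ES indirect, and among pairs with a junction read the shares were 1.72%, 5.45% and 4.09%, against 0.508%, 0.9002% and 0.946%. In ES-2 the second flow cell alone gave 2.83% against 0.880%, which missed the threshold.

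Unnamed RNase MRP RNA1, which the choice did not use, passed the test for this window in the ES samples but missed it in ES indirect. It began there in 52 of 2028 pairs of ES-1 (2.56%, 1.96 to 3.35; adjusted p = 8.0e-19, Fisher's exact test), in 71 of 1317 of ES-2 (5.39%, 4.30 to 6.75; adjusted p = 3.4e-31, Fisher's exact test) and in 10 of 549 of ES indirect (1.82%, 0.992 to 3.32; adjusted p = 0.051, Fisher's exact test). MEF had 0 of 12 (0 to 24.2). The 52, 71 and 10 pairs had 33, 37 and 9 different RNA1 positions and 12, 9 and 5 different RNA2 starts. The tests count every pair as independent. Frequent RNA types stayed lower in the ES samples: snoRNAs 0.521% and 0.718%, spliceosomal RNAs 0.615% and 0.965%, and mRNAs 0.605% and 1.01%. Named 7SK had 0 of 142 (0 to 2.63) and 1 of 88 (1.14%, 0.201 to 6.16). CT025673.1 had 2 of 317 (0.631%, 0.173 to 2.27) and 0 of 57 (0 to 6.31). Their intervals reach the 1.98% and 5.15% of named RNase MRP, so a lower share is not shown for these 2 names. The windows ranked next, chr5:147072701-147072720 and chr17:39983341-39983360, held 3 and 2 of 233 in ES-2 (adjusted p = 0.0021 and 0.0075, Fisher's exact test) and 1 of 303 each in ES indirect (adjusted p = 0.25 and 1, Fisher's exact test).

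RNase MRP RNA was also joined to the spacers of the rRNA precursor in ES indirect, a comparison chosen after its values were seen. Ends named Rn45s cover chr17:39979932-39985783. Ends in it that lay outside chr17:39983214-39985280, the reach of ends named SSU-rRNA_Hsa (18S, 2067 bases), were counted as spacer. These borders are those of named ends and not of mature 18S, so spacer bases next to 18S may be left out. Of unnamed RNase MRP RNA1 159 of 945 (16.8%, adjusted p = 2.1e-80, Fisher's exact test) and of named 50 of 1031 (4.85%, adjusted p = 4.4e-05, Fisher's exact test) were joined to spacer, against 2.41% of other named RNA1. The 159 pairs had 156 different positions, 136 of the pairs lay upstream of 18S (3282 bases) and 23 downstream (503 bases), and of the 50 these were 36 and 14. The internal spacer that RNase MRP is known to cut begins downstream of 18S. U3, the snoRNA that acts on the rRNA precursor, had 1532 of 14444 (10.6%) and tRNAs 5.503%. All snoRNAs had 1785 of 22788 (7.83%), a share in which U3 weighs heavily and which does not stand for the other snoRNAs. Spliceosomal RNAs had 1.85%, the unnamed 7SL genes 1.93%, the unnamed 7SK gene 1.55% and named 7SK 0.275%.

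The other libraries held little spacer. ES-1 had 11 of 3657 named (0.301%) and 8 of 2693 unnamed (0.297%) against 0.154% (adjusted p = 0.10 and 0.20, Fisher's exact test), and ES-2 1 of 368 and 2 of 1955 against 0.128%. MEF had 0 of 37 and 1 of 34. As RNA2 in ES indirect, named RNase MRP had 15 of 816 (1.84%) against 0.834% (adjusted p = 0.029, Fisher's exact test) and unnamed 0 of 222. For ES indirect 2 limits apply: with every line counted the named ends turned to 1.40% against 3.46%, and with the second flow cell alone they missed the threshold (3.92% against 2.68%).

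**Figure D5:**
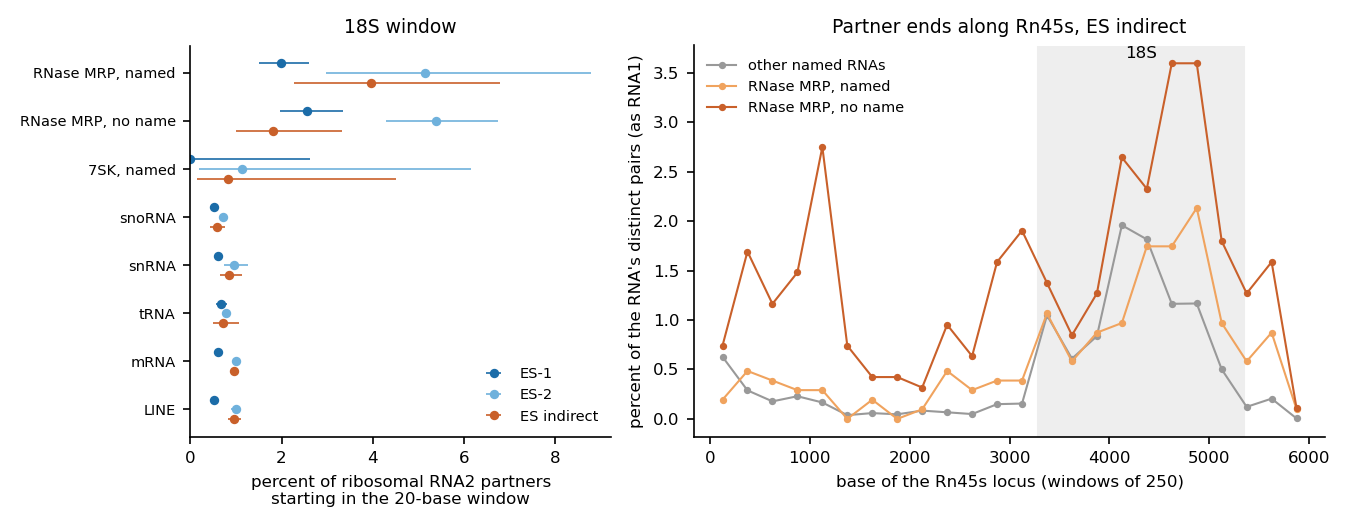
Left, percent of ribosomal RNA2 partners that begin in the 18S window, by RNA1 and library, with 95% Wilson intervals. In the 3 ES libraries shown, RNase MRP lies at 1.82% to 5.39%, and snoRNA, snRNA, tRNA, mRNA and LINE at 1.01% or less. Right, percent of the read pairs of an RNA1 in ES indirect whose RNA2 falls in each 250-base window of Rn45s, with the reach of ends named SSU-rRNA_Hsa (18S) shaded.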

How the data were processed

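The authors deposited 1 line for each read pair and library, with coordinates in mm9 (NCBIM37), strand, sequence, type, name and region of both RNA ends. The submitters' processing notes name TopHat2 2.1.1. The study had removed duplicates by location and random barcode, and the barcode is not among the deposited columns. The lines carry no measured value, and every count was made here from the deposited lines, with read pairs of equal coordinates counted once. Lines of type misc_RNA, srpRNA or scRNA were taken, ends were set against GENCODE vM1, and their sequences were compared with the functional 7SK and 7SL genes by edlib 1.3.9.post1. Python 3.11.15 with SciPy 1.17.1 gave Fisher's exact tests and 95% Wilson intervals. The pair calls were tested on simulated data with 200 planted pairs. The depth of ES-1 was 3230403 lines, that of ES-2 1312314, that of ES indirect 3302146 and that of MEF 474526. Members, gene lists and partner types were chosen with earlier results of these data known. Named partners were, for each RNA, the 5 with most read pairs among those in both ES samples, and the 5 of ES indirect and of MEF, from which the leading ones are printed. That rule had been written for 7SK, 7SL and Y RNA and was applied to RNase MRP and CT025673.1 after the data were seen. The called pairs of single libraries fall outside it and were named after their values were seen. Alternatives were every line, sequences that match mm9 within 15% mismatches, fragments of at least 20 nt, each flow cell, names from the annotation, other minimums and leaving out an ES sample. Those on the junction, the side, unnamed and unannotated ends were chosen after seeing the data. The 2 brain libraries were left out. The sequences behind CT025673.1 and AL844869.1 are not reported here.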

Additional observations from a re-analysis of the deposited data

How the results depend on the processing

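The member share of distinct read pairs (0.161% for ES indirect, 0.0439% for MEF) became 0.245% and 0.0358% with every line counted, 0.174% and 0.0931% with matching sequences, 0.168% and 0.0749% with fragments of at least 20 nt. Flow cell 2 alone gave 0.191% for ES indirect, and flow cells 1 and 2 gave 0.0575% and 0.0131% for MEF. A junction read gave 0.139% for ES indirect. The ES share of 0.173% ran from 0.0812% to 0.222% with an ES sample left out. RNase MRP self pairs (4.26% for ES, 26.3% for ES indirect, 5.13% for MEF) became 9.44% (ES, every line), 5.96% (ES, flow cell 1), 30.2%, 28.9% (ES indirect, each flow cell), 33.7% (ES indirect, annotation names), 1.33% and 100% (MEF, each flow cell), and 0.705% and 8.59% with a junction read (ES, ES indirect). Leaving out an ES sample gave 3.20% to 4.41%. 7SK self pairs (0.931%, 9.87%, 4.62%) became 1.28% and 13.5% with every line (ES, ES indirect), 0.133% and 2.80% with a junction read, 3.29%, 42.9% and 1.10% with annotation names, 1.22% for flow cell 2 of ES, and for MEF 13.04% with matching sequences and 0% and 25% for each flow cell. The MEF shares rest on 4 self pairs of RNase MRP and 3 of 7SK.

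Partner shares past the threshold fell from 35 to 21 with flow cell 1, 20 with a junction read, 17 on the RNA1 side and 15 on the RNA2 side (against all other ends of that side) and 23 to 30 with an ES sample left out. Leaving out unannotated ends took 28 of 132 to 15 (with them kept, 18 to 25 with an ES sample left out), and rRNA then turned against the other RNAs for RNase MRP in ES-2 (67.2%) and ES indirect (62.4%) and for 7SK in ES indirect (52.6%). Shares of rRNA for RNase MRP reversed against the other RNAs in ES-1 on the RNA1 side (72.6%) and the RNA2 side (33.3%), and with annotation names, under which ends named Rn45s lie outside genes, in ES-2 (66.7%) and ES indirect (28.8%). So did, with these names, RNase MRP snoRNA in ES indirect (1.47%) and 7SK rRNA in ES-1 (67.3%) and ES indirect (31.6%). RNase MRP joined to spacers reversed in ES indirect with every line (1.40%). Exonic shares past the threshold went from 1 to 2 with every line, to 0 with a junction read and from 0 to 1 with an ES sample left out. The cause was not tested, except where stated.

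Called member pairs (4, 0, 5, 1 and 3 for ES-1, ES-2, merged ES, ES indirect and MEF) were 55, 3, 56 and 20 for the first 4 with every line, where repeated lines count as evidence, 18, 4, 17 and 10 with a minimum of 2 read pairs, and 0 (ES-1), 1 (merged ES), 0 (ES indirect) and 1 (MEF) with a minimum of 5. Matching sequences gave 1 (ES-2), 3 (merged ES) and 0 (MEF), and fragments of at least 20 nt 1 (ES-2) and 0 (MEF). Merged calls were 0 to 4 with an ES sample left out. Values with only misc_RNA are the same, as no other type occurred. No paired analysis was possible because only ES has 2 libraries here, and the brain libraries that share their numbers were not compared.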
